A study of Mus musculus with 7 samples.

Results

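Genes of small calcium-binding S100 proteins (S100a4, S100a6, S100a10, S100a11), of annexins (Anxa1, Anxa2) and of galectins (Lgals1, Lgals3), with Vim and Crip1, were followed in splenic CD4+CD25+ T cells of aged and young mice. The 10 genes were chosen by symbol, and all 10 were found among the 47729 genes of the count tables and were among the 13904 genes with enough reads to be tested. The cells came from the spleens of wild type male C57BL/6 mice, and were purified with magnetic beads rather than by flow sorting. Aged mice were 18 months old (3 libraries). Young mice (4 libraries) were 8 weeks old by the sample labels and slightly older by the study's methods. No mouse in these groups carried a transgene or received a treatment, and the labels call the samples of a group biological replicates without saying whether mice were pooled. RNA was amplified with a SMART-Seq kit, made for low inputs and free of molecular identifiers. The comparison asks how the RNA of regulatory T cells (Tregs) differs with age.

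S100 proteins bind calcium, change shape and then dock on partner proteins. S100a10 pairs with annexin A2 and S100a11 with annexin A1, so that S100 and annexin genes of this set encode partners in the same complexes. Annexins bind membranes when calcium is present, and annexin A1 also acts outside the cell on formyl peptide receptors. Galectins bind sugars with galactose. Vimentin forms intermediate filaments, and Crip1 is a small protein with a LIM zinc-binding domain. T cells that have met antigen, effector memory cells and activated Tregs among them, are known to carry more RNA of these genes than naive T cells.

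The set did not move as 1 block. Reads of S100a4, S100a6, S100a11, Anxa1 and Anxa2 were higher in the libraries of aged than of young mice, by 1.38 to 3.67-fold. The test was edgeR's quasi-likelihood test (adjusted p under 0.05 over all genes tested). S100a10, Lgals1, Lgals3, Vim and Crip1 did not pass that test. Thus 5 of the 10 genes were called higher and 0 lower, while 9.8% of all genes tested were called higher and 6.94% lower. The 0 covers edgeR at the adjusted threshold. At an unadjusted p under 0.05, 6 of the 10 were higher and 1 (Crip1) lower, against 17.6% and 15.1% of all genes tested. DESeq2 called 6 of the 10 higher and 1, Crip1, lower, against 9.37% and 8.22% of the genes it tested. The median log2 fold change, aged against young, was 0.48 over the 10 genes and 0.02 over all genes tested.

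Every aged library lay above every young one for S100a4, S100a6, S100a11 and Anxa2, and below every young one for Crip1. Non-overlap in either direction was met by 29.9% of all genes tested, 15.5% upward and 14.4% downward. An exact two-sided permutation test on 3 against 4 libraries cannot give a p under 0.0571. Groups that do not overlap reach that value, so for these 5 genes it restates the non-overlap. In each library the 10 genes together took 0.114% to 0.164% of the gene counts. The counts come from bulk RNA, in which fewer cells of a kind and less RNA per cell cannot be told apart. Reads are given as CPM, counts scaled to library size, on the TMM scale, which corrects each library's total for its composition, with mean ± SD.

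**Figure D1:**
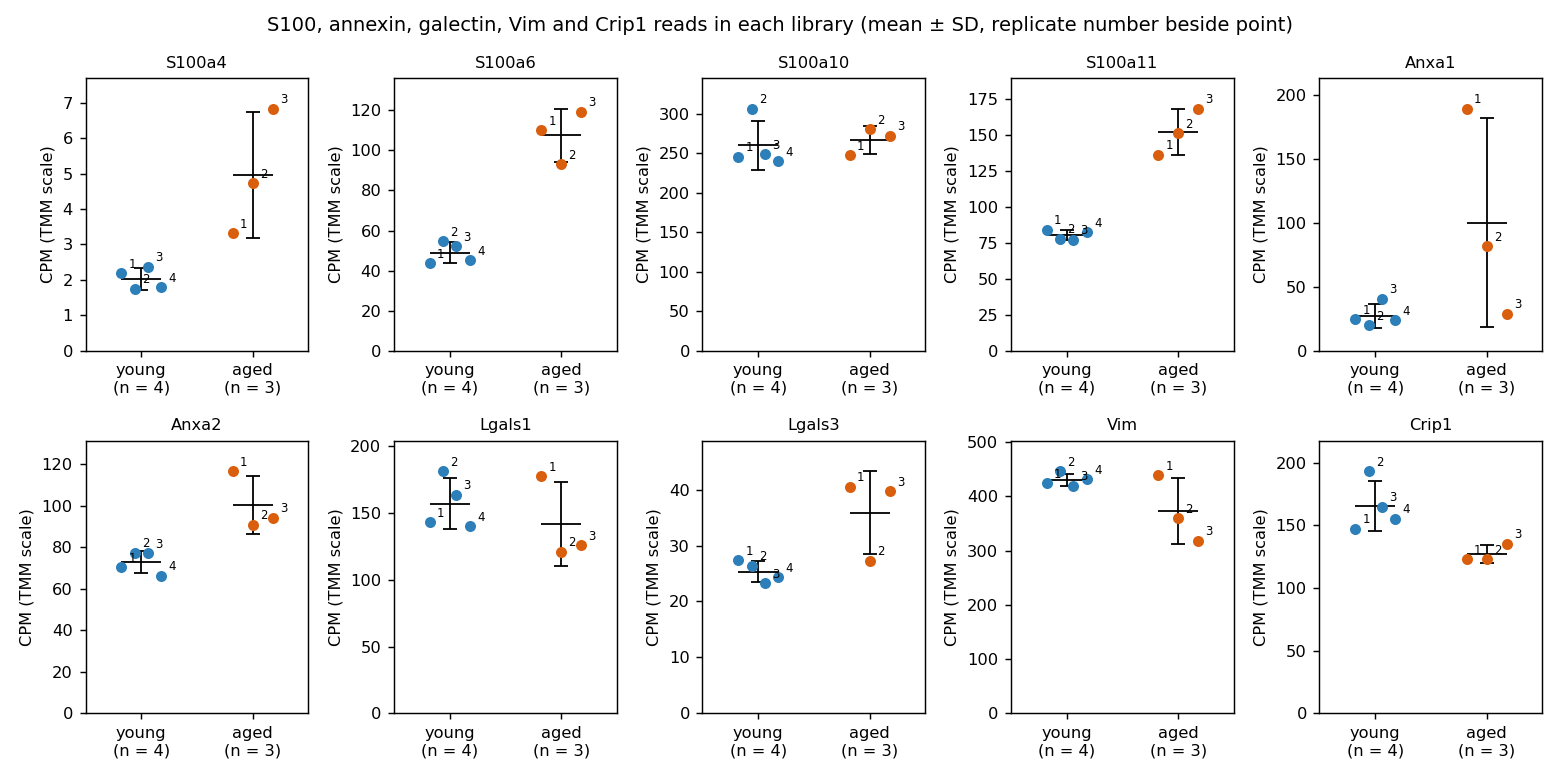
Reads of each of the 10 genes (CPM on the TMM scale, vertical axes from 0) in 4 young (blue) and 3 aged (orange) libraries, with the replicate number beside each point, and the mean and SD in black. Aged points clear all young points for S100a4, S100a6, S100a11 and Anxa2, lie under them for Crip1, and spread from 28.9 to 189 CPM for Anxa1.

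The S100 genes come first. All 4 lie on chromosome 3 on the plus strand (GENCODE M21 on GRCm38), in 2 pairs that lie near each other. S100a4 (3:90603771-90606045) and S100a6 (3:90612882-90624181) are 6836 bases apart, and S100a11 (3:93520488-93526287) and S100a10 (3:93555080-93564643) are 28792 bases apart. S100a5, not a gene of the set, lies between S100a4 and S100a6. Reads of S100a4, S100a6 and S100a11 were higher in aged mice, and those of S100a10, the gene of the set nearest to S100a11, were not. The promoters of the genes that rose and did not overlap between ages are shown so that their sequences can be compared. Each is the 250 bases before the RefSeq start on the strand of the gene (RefSeq, GRCm38.p6), which can differ from the start in GENCODE: chr3:90603520-90603769 for S100a4, chr3:90612644-90612893 for S100a6, chr3:93520246-93520495 for S100a11 and chr9:69453433-69453682 for Anxa2, all on the plus strand. Capitals mark 3 motifs searched on both strands, which are TATAAA of core promoters, the AP-1 motif TGANTCA, and the GC box, GGGCGG.

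S100a4: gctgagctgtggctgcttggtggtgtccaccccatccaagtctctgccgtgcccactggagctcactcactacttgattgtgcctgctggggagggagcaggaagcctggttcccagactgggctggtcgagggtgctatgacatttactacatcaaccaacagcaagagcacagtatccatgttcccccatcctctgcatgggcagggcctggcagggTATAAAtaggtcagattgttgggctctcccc
S100a6: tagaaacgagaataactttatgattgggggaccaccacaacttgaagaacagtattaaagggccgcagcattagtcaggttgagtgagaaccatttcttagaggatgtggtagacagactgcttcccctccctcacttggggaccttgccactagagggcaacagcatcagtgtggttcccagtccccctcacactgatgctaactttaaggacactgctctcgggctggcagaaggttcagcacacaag
S100a11: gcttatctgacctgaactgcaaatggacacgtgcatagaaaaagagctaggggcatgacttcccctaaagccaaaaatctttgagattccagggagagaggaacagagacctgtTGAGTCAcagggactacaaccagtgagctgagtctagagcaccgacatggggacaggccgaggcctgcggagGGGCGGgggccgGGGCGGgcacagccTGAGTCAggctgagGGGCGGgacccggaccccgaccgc
Anxa2: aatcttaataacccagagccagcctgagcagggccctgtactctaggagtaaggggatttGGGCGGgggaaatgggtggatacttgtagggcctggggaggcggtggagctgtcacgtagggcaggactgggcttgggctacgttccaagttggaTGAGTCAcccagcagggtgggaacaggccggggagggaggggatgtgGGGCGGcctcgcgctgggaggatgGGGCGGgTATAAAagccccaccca

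The 4 windows have no motif in common. The S100a4 window holds TATAAA beginning 31 bases before the start. The S100a6 window holds none of the 3 motifs. The S100a11 window holds TGANTCA 136 and 38 bases before the start and GGGCGG at 64, 52 and 24. In the Anxa2 window, TATAAA begins 17 bases before the start, TGANTCA 95, and GGGCGG 190, 48 and 24. Of the 10 genes, 8 had a promoter entry (S100a10 and Lgals1 had none). Of these 8, 4 hold TATAAA (S100a4, Anxa1, Anxa2 and Vim), 2 hold TGANTCA and 4 hold GGGCGG (S100a11, Anxa2, Lgals3 and Crip1). Over 32851 windows of the same length the shares are 12.4%, 6.75% and 32.7%. Thus Vim, which did not pass the test, shares TATAAA with S100a4. These matches are letters in a window and were not tested as sites.

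S100a6, also called calcyclin, had the smallest p of the set together with S100a11. In the aged libraries its reads were 110, 93.1 and 119 CPM, and in the young ones 43.7, 54.7, 52.0 and 45.2 CPM. Even the lowest aged library was well above the highest young one. The means were 108 ± 13.3 (SD, n = 3) and 48.9 ± 5.29 (SD, n = 4), a log2 fold change of 1.14 (SE 0.121, 95% interval 0.86 to 1.41; edgeR adjusted p = 0.00121). Leaving out any 1 library gave 1.06 to 1.23 and kept the call in 7 of 7 fits.

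S100a11, or calgizzarin, behaved alike. Its reads were 136, 151 and 168 CPM in aged and 84.2, 77.9, 77.3 and 82.6 CPM in young libraries. The young libraries stood close together, with an SD of 3.42 around 80.5 CPM, and the aged mean was 152 ± 16.1 (SD, n = 3). The log2 fold change was 0.92 (SE 0.0972, interval 0.69 to 1.14; edgeR adjusted p = 0.00121), and the call was kept without any 1 library. S100a6 and S100a11 were called in 17 of 18 alternative analyses, the most of the 10 genes. Of the same 18, S100a4 was called in 14, Anxa2 in 10 and Anxa1 in 6.

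S100a4, known as metastasin or FSP1 and used as a marker of fibroblasts as well as of memory T cells, was the scarcest of the set. It had 38, 47 and 73 reads in aged and 25, 25, 30 and 25 in young libraries. On the CPM scale these were 3.32, 4.73 and 6.83 against 2.18, 1.75, 2.37 and 1.79. The aged libraries were all higher, and aged 3 was the highest. The log2 fold change was 1.29 (SE 0.284, interval 0.64 to 1.94; edgeR adjusted p = 0.019). It was not called without aged 3 (log2 fold change 0.99, adjusted p = 0.0668) or without young 4 (1.24, adjusted p = 0.0583). In the GENCODE models 51.7% of its 584 exonic bases also lie in the exons of Gm42674 (3:90601904-90605885), which had 0 counts in all 7 libraries. Where a counter leaves out reads that fall on 2 genes, the S100a4 reads cover only its 282 other bases, and its level is then 17.6 ± 6.26 CPM per kilobase in aged and 7.18 ± 1.07 in young libraries. This bears on both ages alike.

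S100a10, or p11, is the partner of annexin A2. Its reads were 247, 280 and 272 CPM in aged libraries and 245, 306, 249 and 240 in young ones. The ages overlapped, and young 2 was the highest library of all. The log2 fold change was 0.04, with an interval of -0.23 to 0.31 that ends below the intervals of S100a6 and S100a11 (edgeR adjusted p = 0.872). Its sign turned under some alternatives, down to -0.18, and it passed the test in 0 of 18.

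**Figure D2:**
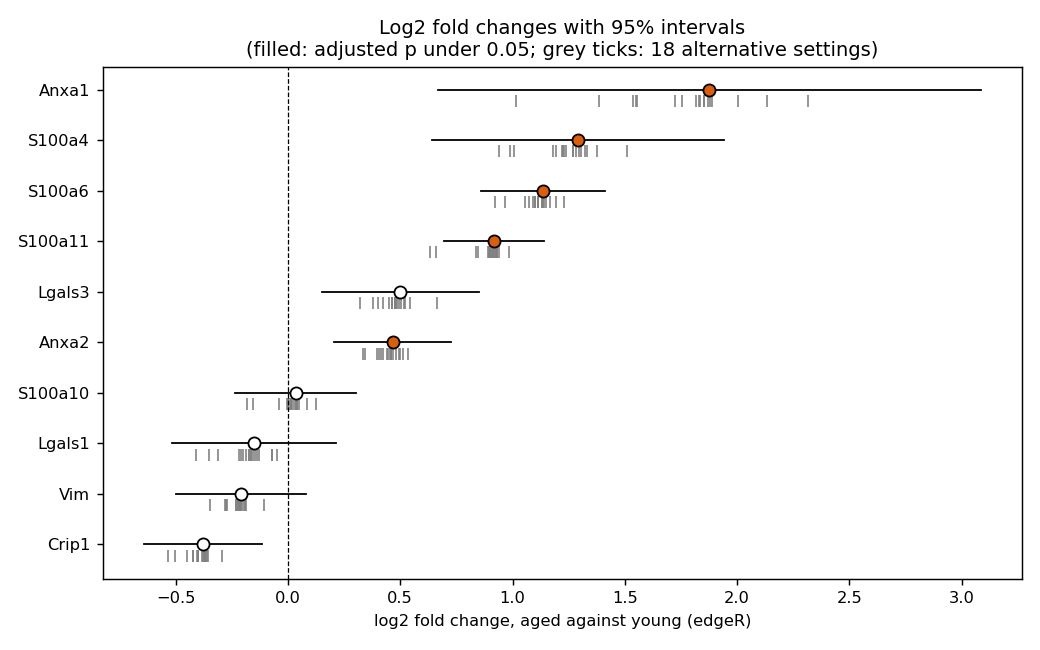
Log2 fold change of each gene, aged against young, by edgeR (circles, filled where the adjusted p is under 0.05), with 95% intervals (lines) and the values under 18 alternative analyses (grey ticks). S100a6 and S100a11 have narrow intervals at 1.14 and 0.92, Anxa1 has the widest, and only S100a10 has alternatives on both sides of 0.

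The annexins followed. Anxa2 (9:69453620-69491795, plus strand) encodes annexin A2, which with S100a10 binds plasminogen and tissue plasminogen activator at the cell surface. Its reads were 116, 90.7 and 94.2 CPM in aged and 70.4, 77.4, 77.1 and 66.2 CPM in young libraries. The lowest aged library was above the highest young one, by a smaller step than for S100a6. The means were 100.5 ± 13.95 (SD, n = 3) and 72.8 ± 5.42 (SD, n = 4), and the log2 fold change was 0.47 (SE 0.113, interval 0.21 to 0.72; edgeR adjusted p = 0.027). The call held in 3 of 7 fits that left out 1 library. It was lost without aged 3 (adjusted p = 0.0512), young 1 (0.0703), young 3 (0.058) or young 4 (0.0798).

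Anxa1 (19:20373428-20390944, minus strand) encodes annexin A1, which is abundant in neutrophils and also present in T cells. It showed the highest fold change and by far the widest spread. Its reads were 189, 81.6 and 28.9 CPM in aged libraries and 24.6, 20.0, 40.5 and 23.7 in young ones. Aged 1 stood far above the other libraries, and aged 3 lay under young 3. The means were 99.9 ± 81.6 (SD, n = 3) and 27.2 ± 9.09 (SD, n = 4), with a log2 fold change of 1.88 (SE 0.529, interval 0.67 to 3.08; edgeR adjusted p = 0.0439, exact permutation p = 0.114). Without aged 1 the log2 fold change was 1.02 (adjusted p = 0.116). The call held only without aged 3 (2.32, adjusted p = 0.0128), and was lost without any of the others, where the adjusted p ran up to 0.116.

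Anxa1 reads moved with reads of neutrophil genes. The summed reads of 14 neutrophil marker genes, S100a8 and S100a9 at their head, were 5875, 2109 and 784 CPM in aged 1, 2 and 3, and 699, 344, 1091 and 496 CPM in young 1 to 4. Of the 14, 5 were called higher in aged mice by edgeR (S100a8, S100a9, Retnlg, Cxcr2 and Csf3r) and 12 at an unadjusted p under 0.05. None was lower by either measure or by DESeq2, and none was at 0 in every library. Anxa1 put the libraries in the order of that sum in 21 of 21 pairs of libraries, including 9 of 9 pairs of the same age. This was so for 10 of the 13904 genes tested (0.0719%), which share these libraries, and the median gene ordered 11 pairs alike. The 10 include Anxa1 itself and S100a8, which is part of the sum. The other genes of the set ordered 4 to 17 pairs alike, S100a6 and S100a11 14 each. The count was made after the values were seen. The part of neutrophil RNA in the difference of Anxa1, or of any other gene of the set, was not tested. Without aged 1, S100a4 (1.51), S100a6 (1.12), S100a11 (0.99) and Anxa2 (0.34) were called higher by edgeR. That fit leaves a neutrophil difference in place, since the sum of aged 2 (2109 CPM) is above every young one.

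**Figure D3:**
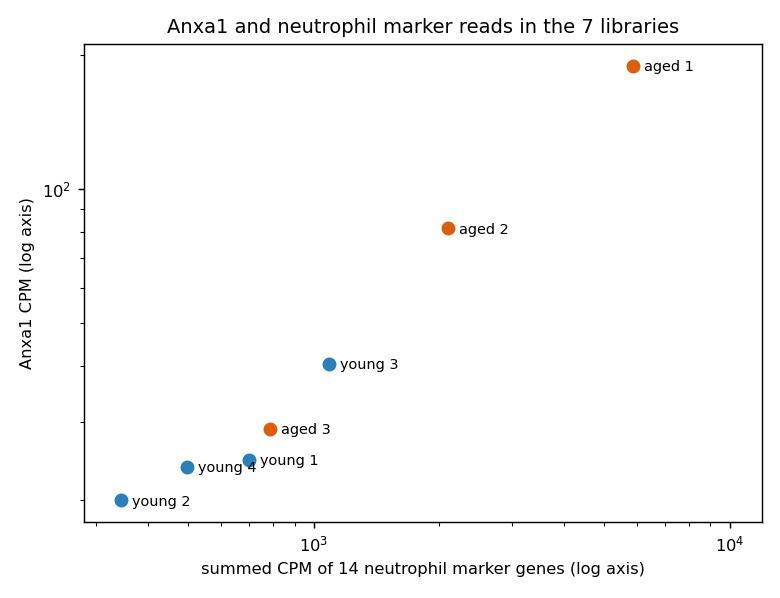
Anxa1 reads (CPM, vertical log axis) against the summed reads of 14 neutrophil marker genes (CPM, horizontal log axis) in each library, 3 aged (orange) and 4 young (blue). The 7 points rise in 1 order from young 2 (344 and 20.0 CPM) to aged 1 (5875 and 189 CPM).

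The galectins did not pass the test, and their values lay on opposite sides of 0. Galectin-1, the product of Lgals1 (15:78926725-78930465, plus strand), is known to be made by activated T cells and Tregs. Lgals1 reads were 178, 121 and 126 CPM in aged and 143, 181, 164 and 140 in young libraries. Aged 1 was inside the young range and the other two aged libraries were under it, and the log2 fold change was -0.15 (interval -0.51 to 0.22; edgeR adjusted p = 0.562). Without aged 1 it was -0.35 (adjusted p = 0.0917), and without aged 2, aged 3 or young 2 it was -0.05 to -0.07. Galectin-3, the product of Lgals3 (14:47367751-47386160, plus strand), is abundant in macrophages. Lgals3 reads were 40.5, 27.3 and 39.7 CPM in aged and 27.4, 26.4, 23.2 and 24.4 in young libraries. Aged 2 was just under young 1, and the other aged libraries were above all young ones. The log2 fold change was 0.50 (SE 0.152, interval 0.15 to 0.85), just outside the threshold (edgeR adjusted p = 0.0562), and it was called in 3 of 18 alternatives. Summed reads of 15 monocyte or macrophage markers ranged from 574 to 756 CPM in aged and from 656 to 769 CPM in young libraries, with 4 called lower (Csf1r, Adgre1, Vcam1 and Mrc1) and 1 higher (Cd14), none of them at 0 in every library. The part of those cells in the Lgals3 values was not tested.

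Vim and Crip1 had log2 fold changes under 0. Vim (2:13573927-13582826, plus strand) had 439, 360 and 318 CPM in aged and 424, 446, 420 and 432 in young libraries. The young libraries were tight around 430.4 ± 11.6 (SD, n = 4), while aged 1 was within their range and aged 2 and 3 were under it. The log2 fold change was -0.21 (interval -0.50 to 0.08; edgeR adjusted p = 0.293). It was -0.35 without aged 1 (adjusted p = 0.0558) and -0.11 without aged 3 (adjusted p = 0.663). Crip1 (12:113146316-113153879, plus strand) had 123, 123 and 135.5 CPM in aged and 147, 193, 165 and 155 in young libraries. All aged libraries were under all young ones. The log2 fold change was -0.38 (SE 0.114, interval -0.64 to -0.12; edgeR adjusted p = 0.0555), and 3 of 18 alternatives called it lower, DESeq2 among them (adjusted p = 0.017).

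Levels were compared between genes per kilobase of exon. In young libraries S100a10 led with 215 ± 25.6 CPM per kilobase, followed by Lgals1 (174 ± 21.3), S100a11 (158 ± 6.70), Vim (90.8 ± 2.45) and Crip1 (72.5 ± 8.76). S100a6 (35.8 ± 3.87), Anxa2 (19.5 ± 1.45), Lgals3 (13.6 ± 1.01), Anxa1 (9.35 ± 3.12) and S100a4 (3.47 ± 0.517) followed. Neighbours in this order whose libraries overlapped were S100a10 and Lgals1, Lgals1 and S100a11, and Lgals3 and Anxa1. Over only the 282 bases that S100a4 shares with no other gene, its level was 7.18 ± 1.07, and its young libraries overlapped those of Anxa1. In aged libraries S100a11 led with 297 ± 31.5 CPM per kilobase, ahead of S100a10 (220 ± 14.2). S100a6 (78.6 ± 9.75) was level with Vim (78.5 ± 12.9), and Anxa1 and Anxa2 overlapped at 34.3 ± 28.0 and 26.9 ± 3.74. The lead of S100a11 depends on the gene model. Over the longest transcript, in place of all exons, S100a10 had 389 CPM per kilobase in aged and 380 in young libraries against 297 and 158 for S100a11.

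Genes of the set were also compared within a library, where library scaling cancels. There were 0.405 ± 0.0636 reads of S100a6 per S100a10 read in aged and 0.188 ± 0.0145 in young libraries, a log2 difference of 1.10. For S100a11 per S100a10 read the ratios were 0.57 ± 0.0425 and 0.313 ± 0.0422 (0.87). Anxa2 reads per read of its partner S100a10 were 0.38 ± 0.0794 and 0.281 ± 0.0237 (0.42, and 0.26 without aged 1, the library with the highest ratio). Lgals3 per Lgals1 read was 0.256 ± 0.0507 and 0.163 ± 0.0235 (0.64). None of these 4 ratios overlapped between ages. Each therefore had an exact permutation p of 0.0571, the smallest that 3 against 4 can give, and the same after adjustment over the 4. They were chosen after the values were seen, and ratios with 1 denominator share its error.

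**Figure D4:**
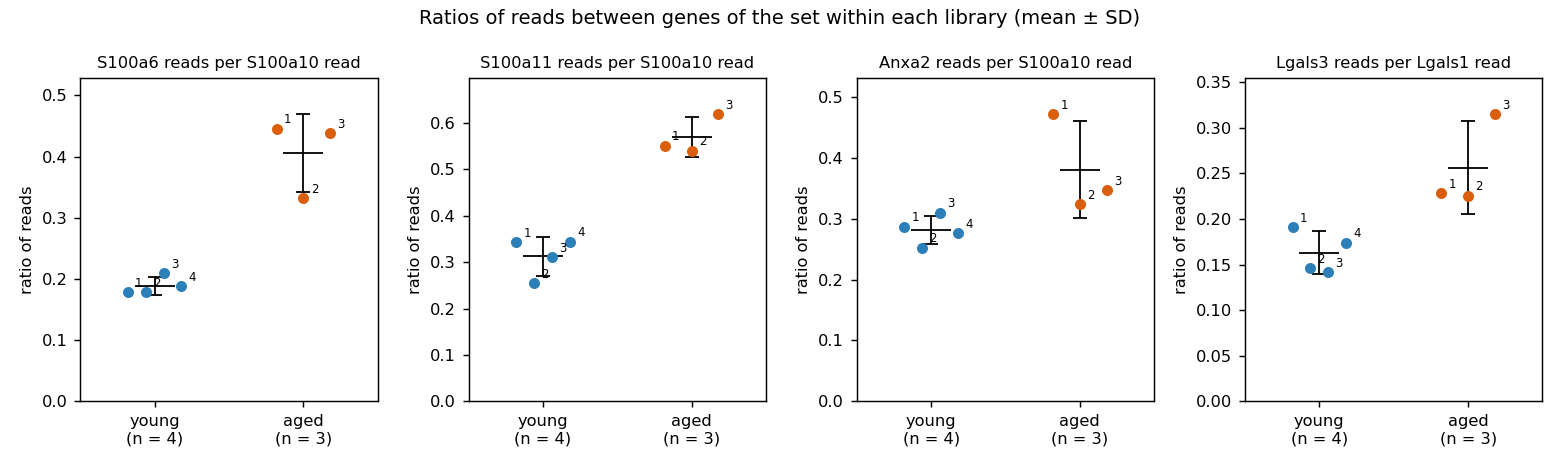
Reads of 1 gene per read of another within each library, for 4 young (blue) and 3 aged (orange) libraries, with mean and SD in black and vertical axes from 0. In all 4 panels the aged points lie above the young ones, with S100a6 per S100a10 read at 0.405 against 0.188 on average.

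The patterns of the 10 genes were also compared with each other over the 7 libraries, as the root mean square difference of log2 CPM after subtraction of each gene's young mean. The closest pairs were Lgals1 and Vim (0.135), Anxa2 and Lgals3 (0.166), Vim and Crip1 (0.21) and S100a6 and S100a11 (0.228). Anxa1 and Crip1 were the farthest apart (1.50). By the same measure, the 5 other genes nearest to the mean pattern of the set, of 9417 compared, were Mks1 (0.0568), Mrpl1 (0.0574), Gsr (0.0653), Tmx4 (0.0764) and Jrkl (0.0847).

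Other genes of the same families were counted from lists chosen by name. Among the other S100 genes, 13 were listed and 4 were tested. S100a8 and S100a9, the subunits of calprotectin and the most abundant small proteins of neutrophils, were called higher. S100a9 reads were 1836, 758 and 324 CPM in aged and 176, 83.9, 321 and 143 in young libraries (log2 fold change 2.43, edgeR adjusted p = 0.0278), and aged 3 was only just above young 3. S100a8 rose by 2.25 (adjusted p = 0.0468) and overlapped between ages. S100a9 was not called without aged 1, young 1 or young 4 (adjusted p up to 0.0796). S100a8 was called only without aged 3 or without young 3 (adjusted p up to 0.132 in the others). S100a1 (0.51, adjusted p = 0.189) and S100a13 (0.03, 0.933) did not pass, and the remaining 9 had too few reads to test.

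Of the other annexins, 7 were tested, 3 were called higher and 1 lower. Anxa3, another annexin of myeloid cells, had 22.1, 17.0 and 13.1 CPM in aged and 4.89, 5.40, 6.55 and 5.88 in young libraries. It kept its call without any 1 library (log2 fold change 1.61, edgeR adjusted p = 0.00201), and while its aged libraries stand in the order of the neutrophil sum, its young ones do not (young 1 is the lowest). Anxa9 (1.81, adjusted p = 0.01) and Anxa4 (0.53, 0.0196) were also higher, the latter not called without aged 3, young 1 or young 3 (adjusted p up to 0.0664). Anxa6, which has twin annexin cores and is abundant in T cells, was lower, at 370 ± 19.6 against 486 ± 42.4 CPM (-0.40, adjusted p = 0.0449). It was called in 1 of 7 fits that left out a library, the one without aged 1 (adjusted p up to 0.142 in the others). Anxa5, Anxa7 and Anxa11 did not pass (-0.05, 0.13 and -0.16).

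Of 4 other galectins tested, Lgals4 was called higher (12.3, 18.5 and 14.3 CPM in aged against 7.60, 9.46, 8.45 and 8.67 in young; 0.81, edgeR adjusted p = 0.016). Lgals9, the ligand of Tim-3, had 122 ± 23.5 against 161 ± 6.22 CPM (-0.40, adjusted p = 0.0684). It lay lower without overlap and DESeq2 called it lower. At an unadjusted p under 0.05, 2 of the 4 (Lgals4 and Lgals8) were higher and 1 (Lgals9) lower. Lgals8 (0.19) and Lgals7 (0.06) did not pass the adjusted test. Of 4 other cysteine-rich LIM genes tested, 0 were called by edgeR, 0 at an unadjusted p under 0.05 and 0 by DESeq2, with Csrp1 at 88.7 against 88.9 CPM and Crip2 at 11.3 against 9.71. Of 6 other intermediate filament genes and their linker, 0 were called by edgeR, and 1, Plec, was lower at an unadjusted p under 0.05 and by DESeq2. Plec, the linker of vimentin to the cell's other filaments, had 183 ± 53.5 against 296 ± 48.7 CPM (-0.69, edgeR adjusted p = 0.0592).

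**Figure D5:**
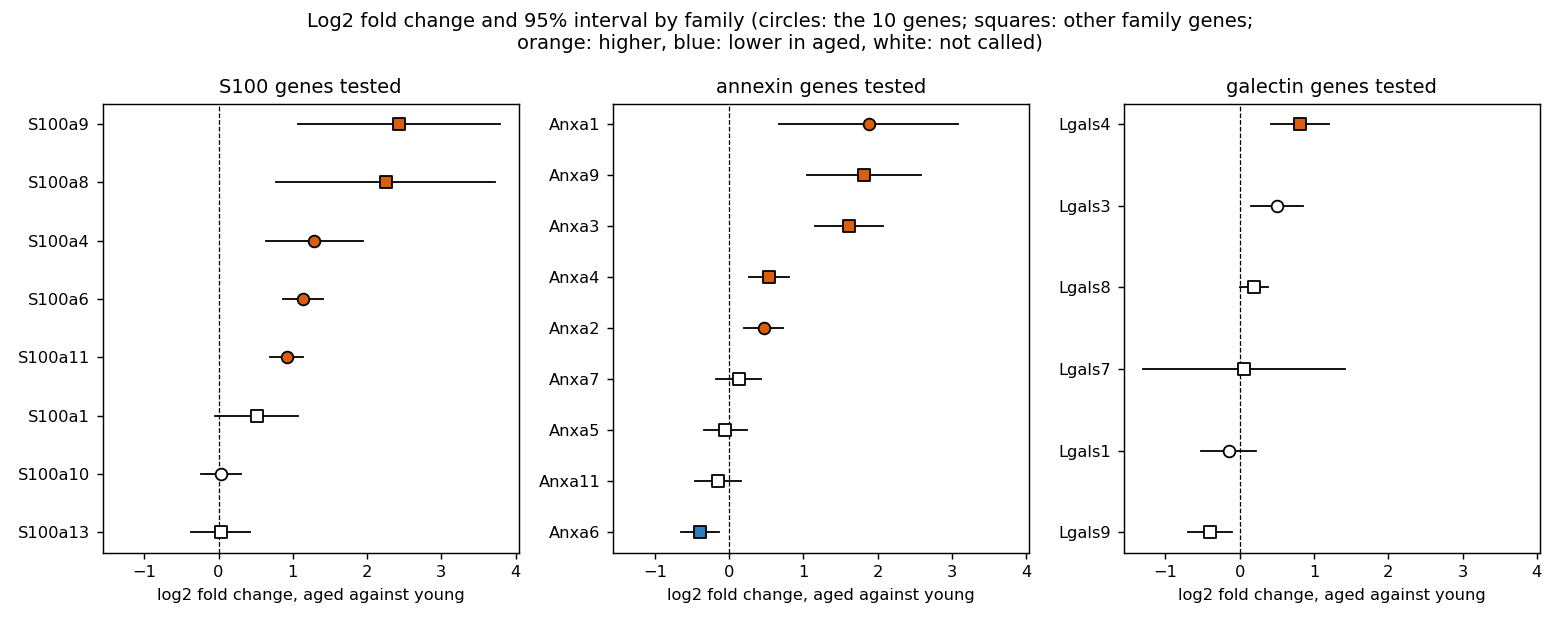
Log2 fold change, aged against young, with 95% intervals for the S100 genes (8), annexins (9) and galectins (6) that were tested. Circles are genes of the set, squares are other genes of the family, orange is called higher, blue lower and white not called. Each family holds genes on both sides of the threshold, with S100a9 at 2.43 the highest and Lgals9 (not called) and Anxa6 (called lower) both at -0.40.

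Receptors and partners of these proteins were tested next. Of 11, 2 were called higher and 0 lower by edgeR and by DESeq2, with 1 (Spn) lower at an unadjusted p under 0.05. The 2 were formyl peptide receptors, through which annexin A1 acts and which are carried by neutrophils. Fpr2 had 19.5, 6.34 and 5.05 CPM in aged and 2.80, 0.981, 2.61 and 2.15 in young libraries (log2 fold change 2.28, edgeR adjusted p = 0.0219). Fpr1 had 5.77, 3.02 and 2.90 against 1.57, 1.82, 1.74 and 1.65 (1.20, adjusted p = 0.0281). In both, aged 1 was the highest library, as it was for Anxa1 and the neutrophil sum. Fpr2 was not called without young 3 or young 4 (adjusted p up to 0.0616), nor Fpr1 without aged 1, young 1, young 3 or young 4 (up to 0.0739). Ahnak, a giant scaffold bound by the S100a10 and annexin A2 complex, was at 499 ± 113 against 524 ± 60.1 CPM (-0.07). Ptprc, which encodes CD45, a target of galectin-1, was at 1625 ± 304 against 1766 ± 126 CPM (-0.12), and Myh9, a myosin chain bound by S100a4, at 1254 ± 204 against 1524 ± 84.5 CPM (-0.28). None of these passed the test.

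S100 proteins and annexins act on the actin skeleton, whose genes were counted as well. Of 21 tested, edgeR called 0 higher and 3 lower (9.8% and 6.94% over all genes). DESeq2 called 1 higher and 7 lower, as did an unadjusted p under 0.05. Tmsb10, which holds actin monomers, had 440 ± 46.3 against 707 ± 116 CPM (-0.69, edgeR adjusted p = 0.0221). Ezr, the membrane linker ezrin, had 268 ± 27.6 against 403 ± 12.9 (-0.59, adjusted p = 0.00891), and Arpc1b, an Arp2/3 subunit, 262 ± 20.7 against 361 ± 33.2 (-0.47, adjusted p = 0.0281). Ezr kept its call without any 1 library. Tmsb10 lost it without aged 2, young 3 or young 4, and Arpc1b without aged 2, aged 3, young 1 or young 4 (adjusted p up to 0.0860). The median of the 21 was -0.21, and 12 of them lay lower without overlap, as did 14.4% of all genes tested. Actb lay higher without overlap (3637 ± 327 against 2824 ± 159 CPM) but did not pass (0.37, adjusted p = 0.107).

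The set was compared with genes of T cell state, since its members are known from effector memory cells. Of 20 effector memory genes, 10 were called higher and 0 lower by edgeR (14 and 0 at an unadjusted p under 0.05, 10 and 0 by DESeq2), with a median log2 fold change of 0.67. Among those called were Cxcr3, Il18r1, Il18rap, Prdm1, Tbx21, Ccl5, Maf, Icos and Tigit. Of all genes tested, edgeR called 9.8% higher and 6.94% lower. The shares were 17.6% and 15.1% at an unadjusted p under 0.05, and 9.37% and 8.22% of the genes DESeq2 tested. Cxcr3, a chemokine receptor of type 1 effector cells, had 107, 114 and 103 CPM in aged against 29.0, 46.7, 27.2 and 35.4 in young libraries (1.64, edgeR adjusted p = 0.00125). Il18r1 lost its call without young 3 (adjusted p = 0.0528) and Icos without aged 3, young 1, young 3 or young 4 (up to 0.0768). Prdm1 kept it only without aged 2 or young 2 (up to 0.0972 in the others). Of 15 naive T cell genes, 14 were called lower (among them Ccr7, Lef1, Tcf7, S1pr1, Klf2, Satb1, Bach2, Actn1, Dapl1, Igfbp4, Ccr9, Foxp1 and Nsg2), with a median of -1.15 over the 15. Satb1, a chromatin organiser of naive T cells, had 106, 71.4 and 78.7 CPM in aged against 249.7, 219, 218 and 235 in young libraries (-1.43, adjusted p = 0.00114). Klf2 lost its call without aged 3 (adjusted p = 0.0516), Ccr7 without aged 2, aged 3 or young 1 (up to 0.0793), and Foxp1 without aged 3, young 1, young 3 or young 4 (up to 0.0655). Tcf7 kept it only without aged 1 or young 2 (up to 0.0903). Within the S100, annexin and galectin set, S100a6 and S100a11 had fold changes and adjusted p of the same order as Maf (1.12, adjusted p = 0.00131), whereas Lgals1, S100a10, Vim and Crip1 did not. The difference between these genes and the effector memory list was not tested.

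The isolated cells carried their markers. Foxp3, the Treg transcription factor, was at 516 ± 93.3 CPM in aged and 446 ± 61.8 in young libraries (0.21, edgeR adjusted p = 0.409), and Cd4 at 441 ± 6.34 and 545 ± 62.1 (-0.30, adjusted p = 0.117). Il2ra, the CD25 gene, was at 380 ± 87.0 and 579 ± 94.3 CPM (-0.61, adjusted p = 0.0588), and Cd3e, a chain of the T cell receptor complex, at 308 ± 40.3 and 223 ± 13.1 (0.46, adjusted p = 0.0301, called in 2 of 7 fits that left out a library, with adjusted p up to 0.0952). Cd5, a surface receptor of T cells, was lower at 321 ± 28.7 and 429 ± 35.3 (-0.42, adjusted p = 0.0422, called in 1 of 7 such fits, up to 0.142), so that of 8 T cell markers 1 was called higher and 1 lower. Of 11 Treg markers, edgeR called 0 higher and 2 lower (Gpr83 and Lrrc32). At an unadjusted p under 0.05, 4 were higher and 3 lower, and DESeq2 called 0 higher and 3 lower. Reads of marker genes of other cell types were found in both ages. Summed reads of B cell markers were 1107 to 2068 CPM in aged and 1580 to 2490 in young libraries, those of stromal or endothelial markers 140 to 153 and 179 to 207, those of erythroid markers 13223 to 160997 and 12624 to 119921, those of plasma cell markers 702 to 1260 and 309 to 1977, those of NK markers 17.4 to 27.7 and 28.3 to 39.4, those of CD8 T cell markers 45.4 to 82.0 and 48.8 to 92.7, those of platelet markers 21.1 to 41.5 and 8.62 to 18.0, and those of dendritic markers 42.2 to 64.1 and 61.2 to 80.6. Of the 8 stromal or endothelial markers tested, edgeR called 1 higher (Col1a2) and 1 lower (Pecam1, the most abundant of them), and the median log2 fold change was 1.05, against the direction of their sum. No gene on these lists was at 0 in every library. The platelet sum was higher in all aged than in all young libraries, as were S100a4, S100a6, S100a11 and Anxa2, and the NK sum was lower in all aged libraries. The part of any of these cells in the results on the 10 genes was not tested.

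Gene counts per library were 10734234 to 13649310, and all aged libraries were shallower than all young ones. The detection limit, set at 3 reads, equals 0.22 to 0.279 CPM, and the lowest count of a gene of the set was 25. The exons of 9 of the 10 genes are together shorter than those of the median gene tested, so a trend with gene length bears on this set. With trends of GC content and length removed from each library, S100a4, S100a6 and S100a11 were still called higher (1.01, 0.97 and 0.63), Anxa1 (1.73, adjusted p = 0.0536) and Anxa2 (0.39, adjusted p = 0.0707) were not, and Crip1 was called lower, 3 genes of 10 up and 1 down against 8.47% and 10.9% of all genes tested. Over all genes that correction gave 1178 higher and 1513 lower calls, against 1362 and 965 without it.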

How the data were processed

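RNA-sequencing libraries of splenic CD4+CD25+ cells (3 aged, 4 young) were analysed. The authors deposited raw read counts per Ensembl gene for each library. Lines for reads assigned to no gene, 13.1% to 20.9% of the total, were left out. The aligner and annotation are not given in the sources used here, and the submitters' processing notes name mm10. The authors also deposited a series table of signal values, which equal the counts divided by 1 size factor per library. From it only gene symbols were taken. Its columns of fold change and p-value from the authors' own comparison were not used. Coordinates and exonic lengths come from GENCODE M21 (GRCm38), matched by gene identifier, and promoters from RefSeq GRCm38.p6. Lengths are those of all exons merged.

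Counts were tested with edgeR 4.0.16 in R 4.3.3 (TMM, filterByExpr by group, quasi-likelihood test, two-sided, no covariate), with Benjamini-Hochberg adjustment over 13904 genes and a threshold of 0.05. Standard errors were derived from the F statistic, and intervals are 95%. Depth per library was 10734234 to 13649310 gene counts. Amplified reads carry no molecular identifiers, so the detection limit of 3 reads covers counting error only. The 95% intervals come from the quasi-likelihood fit and include the spread between libraries. Libraries are labelled biological replicates, and replicates differed by more than counting noise.

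Alternatives were RLE factors, library size only, no filter, a minimum of 10 counts per library, removal of haemoglobin, immunoglobulin and mitochondrial genes, GC content and length trends removed, the replicate number as a block with and without that removal, limma 3.58.1 (voom and trend), DESeq2 1.42.0, and each library left out. Ratios between genes and the order against neutrophil markers were added after the data were seen. The scripts were tested on simulated counts. The genes of the set and the lists were chosen with earlier results of these data known. Named are all genes of the set, the called genes of each list or else its most abundant genes, the markers of the isolated cells, and the 5 genes nearest in pattern. Results for some listed genes are not reported here.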

Additional observations from a re-analysis of the deposited data

Results flagged for a closer look

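S100a10 in the young libraries had 1 library apart from the rest. Young 2 stood at 306 CPM against 240 to 249 CPM in the other young libraries, a gap that was 0.865 of the whole young range, above Dixon's 95% critical value for 4 samples. The test was made for the young libraries of each of the 10 genes, and chance alone flags about 1 in 20 groups. Without young 2 the log2 fold change of S100a10 was 0.12.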

How the results depend on the processing

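The median of the 10 genes stayed between 0.33 and 0.60 under all alternatives run, and S100a6 and S100a11 were called in each except the replicate block combined with removal of GC content and length trends (adjusted p = 0.063 and 0.0699). Of the 10 genes (5 called higher), 3 were called higher with library size only and 3 with GC content and length trends removed. Leaving out 1 library gave 2 to 5 (2 without young 4, and 3 without aged 3, young 1 or young 3). Against 0 called lower, 1 (Crip1) was called with RLE factors, 1 with GC content and length trends removed and 1 with DESeq2. Calls over all genes, 2327, ranged from 1237 to 3058 without 1 library, falling to 1262 without aged 3, 1315 without young 1, 1270 without young 3 and 1237 without young 4, and list genes called higher, 18, from 11 to 18 (11 without young 1, young 3 or young 4). List genes called lower ranged from 12 to 27. S100a10 turned negative with library size only (-0.0401), with GC content and length trends removed (-0.16), with the block and that removal (-0.18), without aged 2 (-0.0027) and without young 4 (-0.0014), and ran up to 0.12 without 1 library. The causes were not tested.

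Replicate numbers did not pair the samples: deviations of same-numbered samples correlated at -0.09, -0.29 and -0.14. With the replicate block 292 genes were called (297 with GC content and length trends removed as well), 2 of the 10 genes were called higher (0 with the removal), 4 list genes higher (3) and 7 lower (7). The low counts of S100a4, and 3 aged libraries, limit the precision.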
